A study of Mus musculus with 6 samples.

Results

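Rpl3l and Rpl3 are a pair of mouse genes that encode alternative versions of the same protein of the large ribosomal subunit, uL3, and their transcripts were followed in each of 6 hearts. The genes were taken by symbol from the deposited heart table, which held 1 probe for each of them (ILMN_2649810 for Rpl3l and ILMN_2974021 for Rpl3). They are 2 of the 18138 gene symbols and 2 of the 25697 probes on the array. The pair was chosen by measured values, since Rpl3l stood among the most reduced transcripts of these same hearts, so the group difference of either gene is given here as a description, with no test.

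The hearts came from male FVB pups (FVB/N in the methods) at postnatal day 6, 3 labelled hSRY-ON and 3 labelled hSRY-OFF, with 1 Illumina MouseRef-8 array per heart. hSRY-ON pups carried a single-copy Signalox-hSRY transgene at the H11 locus. It had been recombined in the one-cell embryo by Cre protein that the oocyte of a Ddx4-Cre mother supplied. The ubiquitous CAG promoter then drove FLAG-tagged human SRY together with EGFP. The paper reports the SRY protein in brain, heart, lung and liver, and in the heart outside TUNEL-positive (apoptotic) areas. The pups taken for the arrays had not inherited Ddx4-Cre themselves. The methods describe hSRY-OFF animals as carriers of the transgene in its unrecombined, DsRed2-expressing form, whereas elsewhere the control littermates are described as Ddx4-Cre carriers or animals with neither transgene. The genotype of the controls is therefore uncertain, and the comparison may set active human SRY against a silent transgene or against none. hSRY-ON pups were small, had little milk in the stomach and died young, and the state of the animal cannot be told apart from the transgene in this design. Human SRY itself has no values in what follows.

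Protein uL3 sits near the peptidyl transferase centre of the ribosome and is needed early in the assembly of the large subunit. Rpl3 is made in nearly all cells. Rpl3l is restricted to heart and skeletal muscle, where it takes the place of Rpl3 in a part of the ribosomes, and its transcript is known to rise as the heart matures after birth while that of Rpl3 recedes. Ribosomes with either paralog can be found in the same muscle. Loss of RPL3L in mice is met by a rise of RPL3, and RPL3L variants are known from inherited forms of cardiomyopathy and atrial fibrillation.

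Between 47.2% and 51.3% of the probes on each array were detected above the negative-control beads, and the highest intensities lay between 43036 and 48079. The dimmest array was hSRY-OFF replicate 3. Of all probes, 12970 from 9660 genes passed the filter on detection, and both members were among them. hSRY-ON replicate 1 stood apart in the sum of lung epithelium markers. The summed normalised intensity of the lung epithelium probes was 14019 in that heart, 348 and 370 in the other hSRY-ON hearts and 223 to 317 in the hSRY-OFF hearts. Only part of the list carried this sum. Sftpa1 was detected on no array, and the tested probes of Ager and Sftpb varied little over the hSRY-ON hearts (SD 0.12 and 0.24 on the log2 scale, n = 3). Values without this heart are therefore given below beside the differences of the members and the counts of gene lists.

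The Rpl3l probe was bright in every hSRY-OFF heart and close to the background in every hSRY-ON heart. In the order of replicates 1, 2 and 3, kept throughout, its intensity as deposited was 2688, 3706 and 2034 in hSRY-OFF hearts, against 283, 305 and 320 in hSRY-ON hearts. The lowest hSRY-OFF heart was thus several times above the highest hSRY-ON heart before any processing. The signal was 14.84 to 22.01 times the median of the undetected probes of its array in hSRY-OFF hearts, and 1.93 to 2.23 times that median in hSRY-ON hearts. Rpl3l was nonetheless detected on all 6 arrays, and the lowest intensity at which any probe counted as detected was between 164.3 and 171.8 on the hSRY-ON arrays.

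Since so much of the hSRY-ON signal was background, the size of the fall depended on how background was treated. The means of the deposited intensities were 2809 ± 843 (SD, n = 3) in hSRY-OFF and 303 ± 18.6 (SD, n = 3) in hSRY-ON hearts, which is a 9.02-fold difference of geometric means. After background correction the intensities were 2544, 3552 and 1912 in hSRY-OFF and 151.8, 170.7 and 191.7 in hSRY-ON hearts, an offset of 16 included, and the difference became 15.15-fold. After quantile normalisation the log2 intensities were 11.13, 11.50 and 11.29 in hSRY-OFF and 7.38, 7.45 and 7.69 in hSRY-ON hearts. The groups did not overlap on any of these 3 scales, as was true on the last scale of 45.2% of all tested probes.

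On the normalised scale Rpl3l averaged 11.31 ± 0.19 (SD, n = 3) in hSRY-OFF and 7.50 ± 0.16 (SD, n = 3) in hSRY-ON hearts, a log2 difference of -3.80 (standard error 0.15 from limma) or 13.95-fold. It was -3.73 without hSRY-ON replicate 1. Without background correction the log2 difference was -3.07 (8.38-fold), and with an offset of 50 it was -3.57 (11.89-fold). The probe held rank 6 from the lowest among the 12970 tested and rank 3 among the 11035 probes detected on all 6 arrays, below which lay only the 2 probes of Ckmt2, the mitochondrial creatine kinase of striated muscle. Only 0.13% of the tested probes moved by at least as much in either direction. In the order of brightness Rpl3l went from rank 1450 among tested probes in hSRY-OFF hearts to rank 7864 in hSRY-ON hearts.

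**Figure D1:**
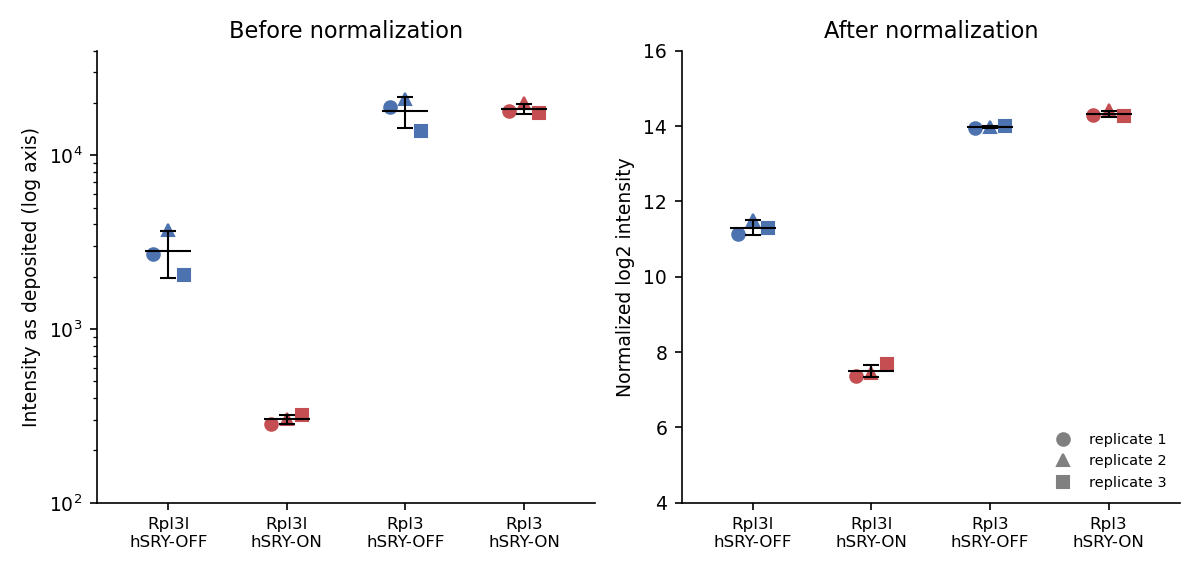
Intensity of the Rpl3l and Rpl3 probes in each heart, as deposited on a log axis (left) and as normalised log2 intensity (right), with marker shapes for replicates 1 to 3, horizontal bars for the mean and error bars for 1 SD (n = 3). Rpl3l lies at 2034 or above in hSRY-OFF and at 320 or below in hSRY-ON hearts as deposited, while the Rpl3 values of the groups overlap before normalisation and separate narrowly after it.

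The Rpl3 probe was one of the brightest on the array in all hearts. Its intensity as deposited was 19087, 21044 and 13883 in hSRY-OFF hearts, against 17992, 20028 and 17565 in hSRY-ON hearts. These values overlapped, and their means of 18005 ± 3701 (SD, n = 3) and 18528 ± 1316 (SD, n = 3) differed by less than the spread between hearts. The probe stood at 32.3% to 43.8% of the highest intensity of its array, so it was not saturated.

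After quantile normalisation Rpl3 was slightly higher in every hSRY-ON heart. The log2 values were 13.94, 13.99 and 14.00 in hSRY-OFF and 14.30, 14.42 and 14.26 in hSRY-ON hearts. The means were 13.98 ± 0.03 and 14.33 ± 0.08 (SD, n = 3 each), and the log2 difference was 0.35 (standard error 0.05 from the hearts of this probe alone) or 1.28-fold. It was 0.36 without hSRY-ON replicate 1. The same data scaled to array medians gave 0.17, scaled in the manner of TCC (a method that scales on genes that do not differ) 0.20, and without normalisation 0.06, and the groups overlapped under the first and the last of these. A difference at least as large as that of Rpl3 was seen in 43.59% of all tested probes.

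Because both probes were read on the same array, their ratio within a heart does not depend on scaling between arrays. Probes differ in brightness per transcript, so the ratio does not give the share of either paralog and only its differences between hearts can be read. From background-corrected intensities, Rpl3l signal was 13.4%, 16.9% and 13.8% of the Rpl3 signal in the hSRY-OFF hearts. It was 0.761%, 0.778% and 1.01% in the hSRY-ON hearts. The hearts of the groups were far apart, with means of 14.7% ± 1.96 and 0.849% ± 0.138 (SD, n = 3 each). On the log2 scale the ratio shifted by -4.12 (standard error 0.17), or 17.35-fold, and nearly all of the shift came from Rpl3l. Without hSRY-ON replicate 1 it was -4.04. From the intensities as deposited the ratio went from 15.4% to 1.64%, a 9.41-fold shift.

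Eef1a2 and Eef1a1 offer a second pair in which a muscle and neuron form of a translation factor stands beside a general form. Both encode elongation factor eEF1A, which brings aminoacyl-tRNA to the ribosome, and Eef1a2 replaces Eef1a1 in muscle after birth. For the brightest probe of each, Eef1a2 signal was 36.5%, 40.8% and 28.6% of Eef1a1 in hSRY-OFF hearts and 19.1%, 21.0% and 18.2% in hSRY-ON hearts. The log2 ratio shifted by -0.85 (standard error 0.16) and by -0.84 without hSRY-ON replicate 1, in the direction of the Rpl3l to Rpl3 ratio, and the groups did not overlap for either pair. The Eef1a1 probe stood at 77.9% to 83.9% of the highest intensity of its array, near the top of the scale where brightness may no longer follow abundance, so the size of this shift is not set against that of the Rpl3l pair.

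**Figure D2:**
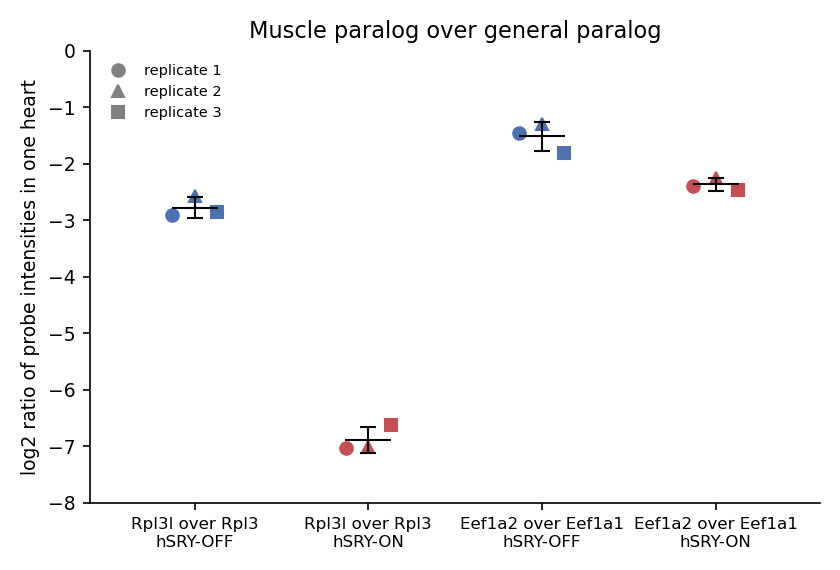
Log2 ratio of background-corrected probe intensities within each heart for Rpl3l over Rpl3 and for Eef1a2 over Eef1a1, with marker shapes for replicates 1 to 3, horizontal bars for the mean and error bars for 1 SD (n = 3). The Rpl3l to Rpl3 ratio lies near -2.77 in hSRY-OFF and near -6.89 in hSRY-ON hearts, and the ratio of the elongation factors shifts by -0.85.

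The start of Rpl3l is shown because human SRY binds DNA through its HMG box and the gene lay among the lowest in the hSRY-ON hearts. RefSeq gives 2 starts for Rpl3l on the plus strand of GRCm38.p6, and the 250 bases before each are printed 5′ to 3′, the first at chr17:24727576-24727825 and the second at chr17:24732435-24732684. In the first window, capitals mark a match on the reverse strand to AGATAA, the motif of GATA factors, and in the second a match to the MEF2 motif. The promoter table matched 1 of the 2 genes, and Rpl3 had no entry.
Rpl3l upstream of the first start: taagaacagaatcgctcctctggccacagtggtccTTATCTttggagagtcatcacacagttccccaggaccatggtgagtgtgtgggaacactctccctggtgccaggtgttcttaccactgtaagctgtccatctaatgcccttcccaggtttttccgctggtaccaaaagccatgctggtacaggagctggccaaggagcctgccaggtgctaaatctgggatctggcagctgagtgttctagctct
Rpl3l upstream of the second start: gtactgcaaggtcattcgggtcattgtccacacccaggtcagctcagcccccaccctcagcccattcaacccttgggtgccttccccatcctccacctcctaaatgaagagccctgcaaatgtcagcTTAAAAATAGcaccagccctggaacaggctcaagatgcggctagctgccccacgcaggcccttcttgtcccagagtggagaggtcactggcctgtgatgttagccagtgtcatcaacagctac
The GATA match lay at positions -215 to -210 from the first start, and the MEF2 match at -123 to -114 from the second. Of 32851 mouse promoter windows searched on both strands, 10.0% held AGATAA and 2.9% held the MEF2 motif. Neither Rpl3l window held AACAAT, the SRY core motif present in 9.4% of windows, or ACAAAG, a SOX motif present in 16.5%, or the CArG box of serum response factor, present in 1.5%. The E-box CANNTG, found in 66.2% of windows, occurred 3 times in the first and 1 time in the second. These are matches of letters in short windows and do not show binding.

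Probes of ribosomal protein genes other than the pair barely moved. Of 60 probes tested for 50 of these genes, 4 were called higher and 0 lower in hSRY-ON hearts at an adjusted p under 0.05 (limma), or 6.7%, where 27.5% of all tested probes were called, 13.8% higher and 13.7% lower. Without normalisation between arrays 1897 probes were called, 38.5% of them higher, against 3567 with 50.1% higher in the main processing. The 32 large subunit probes had a median log2 difference of 0.08 with 1 called higher, and the 28 small subunit probes had a median of 0.17 with 3 called higher. The median of all tested probes was -0.005. Some ribosomal protein probes were near the top of the scale, where a change may not be seen. Rplp1 averaged 15.29 in hSRY-OFF and 15.32 in hSRY-ON hearts, and Rpl41 15.09 and 15.17.

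The called genes were Rps6, Rps26 and Rps15a of the small subunit and Rpl18 of the large subunit. Rps6, the small subunit protein phosphorylated by S6 kinase, rose by 0.63 (standard error 0.13, adjusted p = 0.011 from limma), Rps26 by 0.46 (adjusted p = 0.0184 from limma) and Rpl18 by 0.44 (adjusted p = 0.0232 from limma). The dim Rps15a probe rose by 0.45 (adjusted p = 0.0437 from limma). Without normalisation the median of the 60 probes was -0.04 and 0 were called. Leaving out hSRY-ON replicate 1, the heart with lung transcripts, left 1 call, as did leaving out hSRY-OFF replicate 1 or hSRY-OFF replicate 2, and leaving out hSRY-ON replicate 2 left 2. Rps6 passed the test in each of these fits except the one without normalisation, where its difference was 0.46 (adjusted p = 0.369 from limma).

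Rpl3 lay in the upper part of this family, some of whose probes were near the top of the scale. Only 5 of the 60 probes had a larger difference than Rpl3, those of Rps6, Rps26, Rps15a, Rpl18 and Gnb2l1 (Rack1, a scaffold protein of the small subunit). Relative to the median of the family in the same heart, Rpl3 was higher by 0.34, 0.39 and 0.69 on the log2 scale in hSRY-OFF hearts, against 0.71, 0.72 and 0.61 in hSRY-ON hearts. hSRY-OFF replicate 3 lay among the hSRY-ON hearts, so the groups overlapped on this measure. Rpl3l, in contrast, went from -2.47, -2.09 and -2.02 relative to the family median in hSRY-OFF hearts to -6.21, -6.26 and -5.96 in hSRY-ON hearts.

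Other ribosomal proteins have close paralogs too, and none of those tested moved like Rpl3l. Of 7 such genes, 6 were on the array by name and 4 were tested with 5 probes. No probe was called by limma, 0 had an unadjusted p under 0.05, and among the alternatives an intensity trend or no background correction called 1 higher, and array weights 1 higher and 1 lower. The differences were -0.38 and 0.07 for the 2 probes of Rpl7l1, 0.26 for Rpl36al, -0.05 for Rps27l and 0.06 for Rps4l, which the array lists as Rps4y2. Rpl39l, a paralog best known from testis, was detected on no array, and Rpl22l1 on 2 hSRY-ON arrays and no hSRY-OFF array.

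Among elongation factors, 4 of 17 probes fell and 0 rose, or 23.5% called, against 27.5% of all tested probes. The same counts held without hSRY-ON replicate 1. Without hSRY-OFF replicate 3, 5 fell and 3 rose, and 3 also rose without background correction, with an intensity trend and with array weights, those of 1 Eef1b2 probe and 2 Eef2 probes each time. All 3 probes of Eef1a2 fell, by 0.91 (adjusted p = 0.00187 from limma) and by 0.70 for each of the others (adjusted p = 0.00495 and 0.00429 from limma), and they were also called lower under every scaling tried. The fourth was a dim probe of Eef1d, an exchange factor subunit for eEF1A, at -0.59 (adjusted p = 0.0141 from limma, and 0.0631 without hSRY-OFF replicate 1), while its bright probe was at -0.27 and did not pass. Eef1a1 was at 0.06 and 0.15, and Eef2, the translocation factor, at 0.36, 0.18 and 0.42, none of which passed the test in the main processing. Eef1b2 (0.34, -0.01 and -0.27), Eef1g (0.09), Eef2k (0.16) and Eif5a (-0.11 and -0.21) did not pass either, and Eif5a2 was not detected.

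**Figure D3:**
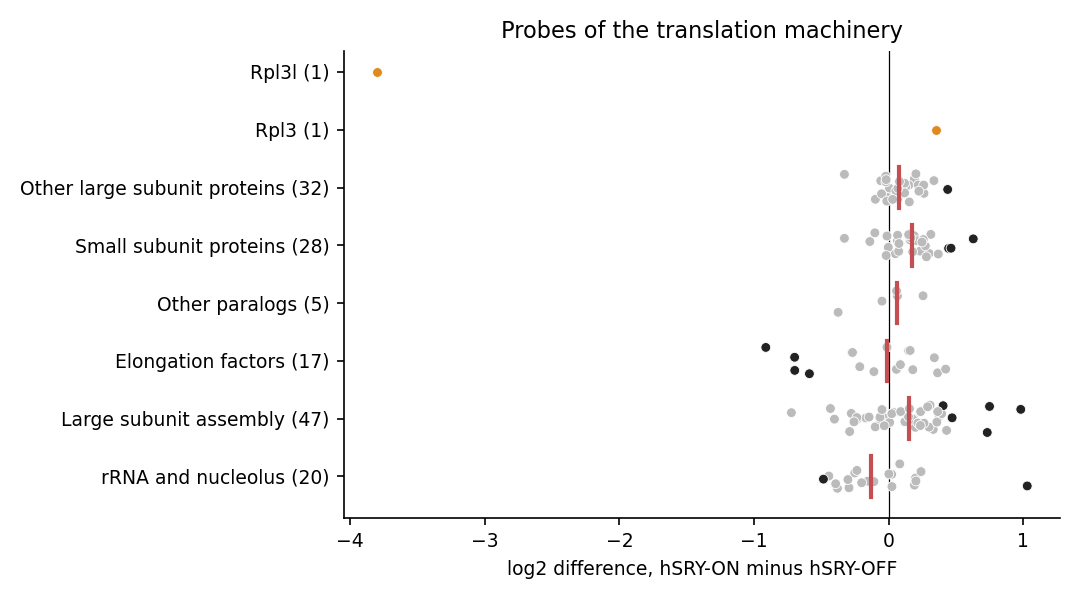
Log2 difference, hSRY-ON minus hSRY-OFF, of each tested probe of the translation machinery, with the number of probes in brackets, black points for probes called by limma at an adjusted p under 0.05, grey points for the others, orange points for Rpl3l and Rpl3, for which no test is given, and red bars for list medians. Rpl3l at -3.80 lies far outside the range of the other ribosomal proteins, -0.33 to 0.63, and Rpl3 at 0.35 lies within it.

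Genes that build the large subunit were examined since uL3 is among the first proteins placed in it. Of 47 tested assembly factor probes, with a median of 0.15, 10.6% were called, against 27.5% of all tested probes. The called probes were 5 higher and 0 lower. They belonged to Rbm28 (0.98, adjusted p = 0.0041 from limma), Rrp12 (0.75, adjusted p = 0.00728 from limma), Ddx24 (0.73 and 0.47) and Gnl3 (0.40), while the brighter probe of Rbm28 was at -0.03. Without normalisation 1 was called higher and 1 lower, 4 were called higher without hSRY-ON replicate 1, and 3 were called higher without hSRY-OFF replicate 1, hSRY-ON replicate 2 or hSRY-ON replicate 3. Grwd1, the chaperone that carries Rpl3 to the nucleolus, was at -0.23 and -0.43, and Mettl18, the enzyme that methylates a histidine of Rpl3, was at 0.31, and neither passed the test. For rRNA synthesis and the nucleolus, 10.0% of 20 probes were called. The 1 that rose was that of Taf1d (1.03, adjusted p = 0.00254 from limma), a subunit of the factor that recruits RNA polymerase I. One Ncl probe, for nucleolin, fell by 0.49 (adjusted p = 0.0268 from limma), a call that was absent with any of hSRY-OFF replicate 1, hSRY-OFF replicate 2, hSRY-ON replicate 1 or hSRY-ON replicate 2 left out.

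Rpl3l moved in the same direction as most genes of mature striated muscle. Of 22 tested probes of genes that rise in heart or muscle after birth, 19 fell and 0 rose, with a median of -1.11, where 13.7% of all tested probes were called lower. The log2 difference was -7.09 for Ckmt2, -3.10 for Tcap, a Z-disc protein, -2.87 for Hrc, a calcium-binding protein of the sarcoplasmic reticulum, and -1.44 for Cox7a1, a muscle form of a cytochrome oxidase subunit. The probes that did not pass were those of Casq2 (0.23), S100a1 (0.39) and 1 of Atp2a2 (-0.09). Without hSRY-ON replicate 1, 16 of the 22 were called lower.

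Of 19 probes of fetal or general counterparts, 9 rose and 3 fell, where 13.8% of all tested probes were called higher and 13.7% lower. The increases came from 6 genes and the decreases from 3. Every probe of Acta2 (0.53 to 1.48) and that of Tagln (1.81) were among the increases. Myh7, the slow myosin heavy chain of the fetal mouse ventricle, rose by 2.94 (adjusted p = 8.25e-05 from limma), and Acta1, the skeletal actin that the young heart also uses, fell by 3.25 (adjusted p = 0.000389 from limma). Myl4 (-0.99) and Cox7a2 (-1.14) also fell, and the natriuretic peptide genes Nppa (0.14) and Nppb (0.47) did not pass the test. The Nppa probe averaged 15.28 in hSRY-OFF and 15.42 in hSRY-ON hearts, near the top of the scale, where a rise may not be seen. In place of 9 increases, 6 were called without hSRY-ON replicate 1. In place of 3 decreases, 1 was called without hSRY-OFF replicate 1, hSRY-OFF replicate 2, hSRY-ON replicate 1 or hSRY-ON replicate 2. These lists were drawn up with earlier results of the same hearts known, so the counts describe the hearts and do not bear independently on Rpl3l.

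**Figure D4:**
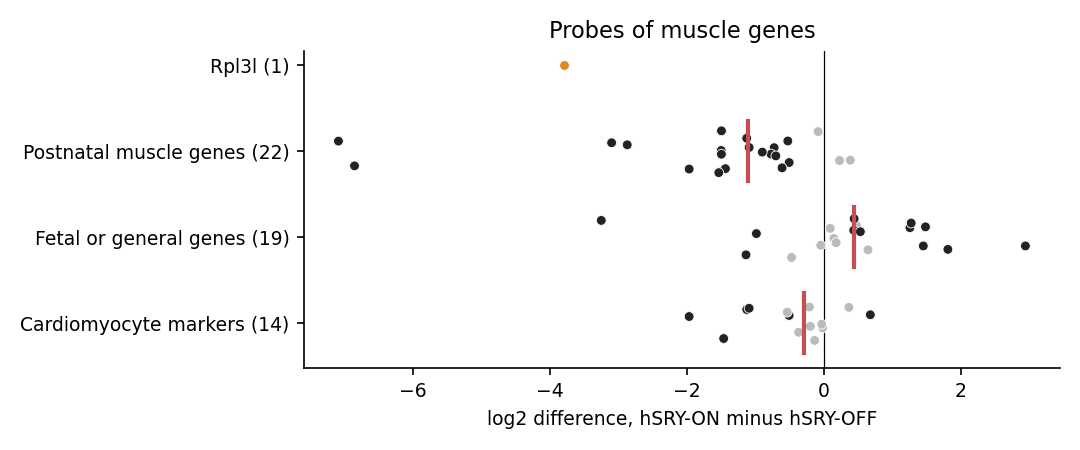
Log2 difference, hSRY-ON minus hSRY-OFF, of each tested probe of muscle genes, with the number of probes in brackets, black points for probes called by limma at an adjusted p under 0.05, grey points for the others, an orange point for Rpl3l, for which no test is given, and red bars for list medians. The median is -1.11 for postnatal muscle genes and 0.44 for fetal or general genes, and only the 2 probes of Ckmt2 lie below Rpl3l.

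Rpl3l is made by cardiomyocytes, so its level can also move with the share of these cells, and fewer cells and less RNA per cell cannot be told apart in whole hearts. All 11 cardiomyocyte markers on the array were detected. Their summed normalised intensity ranged from 178896 to 193245 over hSRY-OFF hearts and from 158895 to 173071 over hSRY-ON hearts, so the groups did not overlap. Of 14 tested probes 1 was called higher and 5 lower, or 42.9%, where 27.5% of all tested probes were called. Without hSRY-ON replicate 1 the counts were 1 higher and 4 lower. The brightest markers, Myl2 and Myl3, stood at 88.4% to 99.9% of the highest intensity of their arrays, where a fall may not be seen. Of the dimmer markers, Myh6 (-1.97 and -0.51), Pln (-1.47), Tnni3 (-1.13) and Ryr2 (-1.09) were called lower. Nkx2-5 was called higher (0.68, adjusted p = 0.00493 from limma). Tbx20 (0.36), Gata4 (-0.37), Actc1 (-0.20 and -0.54) and Ttn (-0.21 and -0.14) did not pass the test. The part of the cardiomyocyte share in the fall of Rpl3l was not tested. Of 12 skeletal muscle markers, another source of Rpl3l, 4 were detected and 8 were not, Myod1, Myf5, Myh1, Myh2 and Myh4 among them. Their sum ranged from 699 to 718 over hSRY-OFF hearts and from 658 to 775 over hSRY-ON hearts, so the sums overlapped, but single probes moved in opposite directions. Of 5 tested probes 2 were called higher and 2 lower, or 80.0%, where 27.5% of all tested probes were called. None of the 5 overlapped between the groups, as was true of 45.2% of all tested probes. Tnni2, a fast skeletal troponin, was at -1.91 and Myog at -0.56. The 2 higher probes, of Actn3, a fast-fibre actinin, were detected on all hSRY-ON and no hSRY-OFF arrays. They therefore passed the filter through the hSRY-ON hearts alone. With any hSRY-ON heart left out, the Actn3 probes did not pass the filter, 2 probes were called lower without hSRY-ON replicate 1 or 3 and 1 without hSRY-ON replicate 2, 1 was called lower without hSRY-OFF replicate 1, and 1 was called higher without hSRY-OFF replicate 2 or 3. The part of skeletal muscle RNA in the level of Rpl3l was not tested.

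Of the other cell types, the macrophage and liver marker sums were far apart between the groups. The sum over 7 macrophage markers ranged from 2425 to 2675 over hSRY-OFF hearts and from 4723 to 5149 over hSRY-ON hearts. Of its 8 tested probes 6 were called higher, and 5 without hSRY-ON replicate 1. Liver transcripts summed, in the same order of groups, to 461 to 469 and 1598 to 3784, with Alb, Fgb and Serpina1a detected on no array. Fibroblast markers summed to 34846 to 39142 and 30836 to 34544, endothelial markers to 25061 to 26622 and 23351 to 25173, and erythroid markers to 49070 to 61319 and 50853 to 55517. The fibroblast sums stood narrowly apart, and the endothelial and erythroid sums overlapped. The part of these shifts, and of the lung transcripts in hSRY-ON replicate 1, in the level of Rpl3l or Rpl3 was not tested.

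The genes whose profile over the 6 hearts was most like that of Rpl3l were found by Pearson correlation among 2075 other probes with an SD of at least 0.5. They were Tmem143 (r = 0.9996), Fgf16 (0.9991), Papln (0.9987), LOC333331 (0.9983), Acadvl (0.998), Dbh (0.998), Rmnd1 (0.9977) and Rxrg (0.9972), all lower in hSRY-ON hearts. Acadvl encodes the very long chain acyl-CoA dehydrogenase of mitochondrial fatty acid oxidation, Fgf16 a growth factor of the heart, Dbh dopamine beta-hydroxylase and Rxrg a retinoid X receptor. Of these, Fgf16, Dbh and Rxrg were above background on no hSRY-ON array. With 2 separated groups of 3 hearts, high correlations are common, and 21.0% of the compared probes reached 0.95.

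For Rpl3 the most alike of 12969 other probes were Map3k6 (r = 0.9991), Slc44a2 (0.9987), Eno2 (0.9978), Atp4a (0.9978) and St7l (0.9973), all higher in hSRY-ON hearts, and 5.3% reached 0.95. Their own differences, from 1.01 for St7l to 2.24 for Eno2, a glycolytic enolase, were several times that of Rpl3. The correlation between Rpl3l and Rpl3 themselves was -0.96 over the 6 hearts, which share the group contrast and the normalisation.

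Genes beside the pair on the chromosome were read as well. Within 50 kb of Rpl3l in the RefSeq order, 9 probes of 7 genes were tested, of which 2 were called lower and 0 higher. That is 22.2% called, where 27.5% of all tested probes were called, 13.8% higher and 13.7% lower. The same counts held without hSRY-ON replicate 1. Ndufb10, a subunit of respiratory complex I, fell by 1.58 (standard error 0.22, adjusted p = 0.00209 from limma), and 1 of 2 probes of Noxo1 fell by 0.61 (adjusted p = 0.00764 from limma). Rps2, another ribosomal protein gene beside Rpl3l, was at 0.06, Gfer at 0.06, Tbl3 at 0.10, Zfp598, a ubiquitin ligase of stalled ribosomes, at 0.19 and Msrb1 at -0.16 and -0.19. Within 50 kb of Rpl3, 8 probes of Syngr1 and Tab1 were tested, with a median of 0.30, and 1 (12.5%) was called higher. The Syngr1 probes were at 0.45, 0.51, 0.55 and 0.91, each above the 0.35 of Rpl3, and the Tab1 probes lay between -0.24 and 0.15. The called Syngr1 probe (adjusted p = 0.00145 from limma) was above background on no hSRY-OFF array and did not pass the filter with any hSRY-ON heart left out. Without background correction, with an offset of 50 and with an intensity trend, 3 Syngr1 probes were called higher, and without normalisation limma called 0, with 1 of the 8 probes at an unadjusted p under 0.05.

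The direction of the Rpl3l difference held under all 17 alternative settings, with a log2 difference between -3.92 and -3.07 and a rank between 3 and 8 from the lowest. That of Rpl3 was above 0 under all of them but ranged from 0.06 to 0.39. Before normalisation, 1 dim hSRY-OFF array carried the lowest Rpl3 value, and scaling between arrays set the size of that difference. Changing only the probe filter, or adding an intensity trend or a replicate block, reuses the same normalised values. Those settings could not change the difference of either gene.

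**Figure D5:**
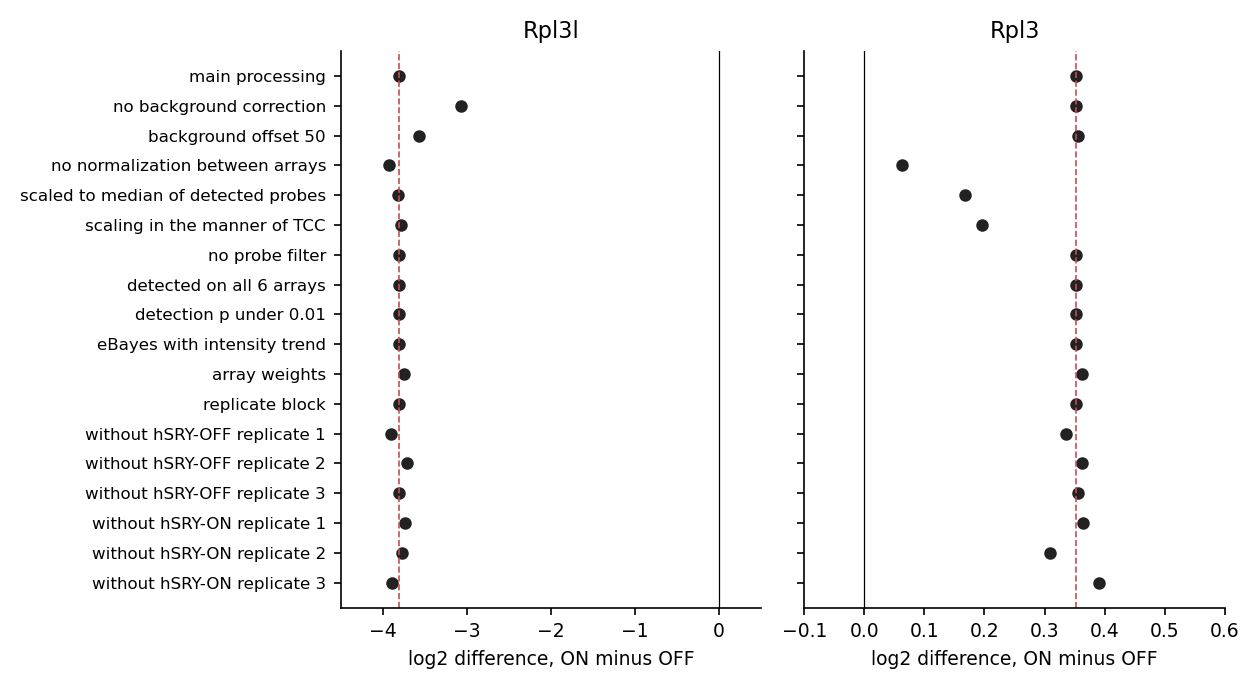
Log2 difference, hSRY-ON minus hSRY-OFF, of Rpl3l (left) and Rpl3 (right) under the main processing, marked by the dashed red line, and each alternative, with a point for each setting. Rpl3l stays between -3.92 and -3.07, and Rpl3 falls from 0.35 to between 0.06 and 0.20 when quantile normalisation is replaced.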

How the data were processed

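Total RNA of 3 hSRY-ON and 3 hSRY-OFF hearts was labelled as biotinylated cRNA and hybridized to Illumina MouseRef-8 arrays. The authors deposited the intensity of each probe without normalization, and the deposited table also holds a detection p-value for each probe and array. The summarising of beads into these values is not given in the sources used here, and the methods name TCC without settings. Probes that measure near-identical sequences, such as pseudogene copies of Rpl3, may share signal, which was not tested.

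With R 4.3.3 and limma 3.58.1, neqc corrected the background from the detection p-values with an offset of 16, normalized by quantiles and took log2. Probes with a detection p-value under 0.05 on at least 3 of 6 arrays were fitted with lmFit and eBayes, with group as the only term, and Benjamini-Hochberg adjustment over 12970 probes. Replicates are separate samples by their labels, p-values measure only the spread between these samples, and 3 arrays per group limit the precision. The paralog ratio was taken from background-corrected intensities with the offset removed. Genes were named by rule: both members, the extremes of each list, all paralogs and elongation factors, the most correlated genes and neighbours within 50 kb; others are named after their values were seen. The members and gene lists were chosen with earlier results of these data known. Older array symbols were matched through RefSeq names. Python 3.11.15 with matplotlib 3.10.9 drew the figures. The steps were tested on simulated data. There, 52.1% of planted log2 differences of 1 and 83.5% of those of 2 were called, as were 13 unchanged probes. A probe that did not pass the test may therefore still differ.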

Additional observations from a re-analysis of the deposited data

How the results depend on the processing

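Both members kept their direction under all 17 alternatives. Those that changed only the probe filter or added an intensity trend or a replicate block could not alter the differences. The log2 difference of Rpl3l was -3.07 without background correction and -3.57 with an offset of 50, and that of the paralog ratio, -4.16 on the normalised scale, was -3.42 and -3.93. For Rpl3 the difference was 0.062 without normalisation, 0.17 with arrays scaled to the median and 0.20 with a scaling in the manner of TCC. Leaving out 1 heart at a time gave -3.90 to -3.71 for Rpl3l, 0.31 to 0.39 for Rpl3 and -4.28 to -4.07 for the ratio. The 3567 called probes became 1897 without normalisation and 2206 to 3669 with 1 heart left out, the lowest counts being 2206 without hSRY-OFF replicate 1 and 2255 without hSRY-ON replicate 1. The 4 called ribosomal protein probes became 12 without background correction, 0 without normalisation (limma, 0 at an unadjusted p under 0.05), 1 with median scaling, 2 in the manner of TCC, 14 with an intensity trend, 9 with array weights (8 higher, 1 lower) and 1 to 6 with 1 heart left out, the cause of which was not tested.

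Same-numbered hearts of the groups did not deviate together, with correlations of -0.03, 0.04 and -0.07. Hearts with different numbers gave -0.06 to 0.09. The values show no pairing by number, but 3 hearts per group are too few to settle whether one exists. A replicate block gave 2842 called probes and 1 ribosomal protein probe. It cannot change the differences of Rpl3l, Rpl3 and their ratio, since each block holds 1 heart of each group. Signal over background limits the Rpl3l level in hSRY-ON hearts, and the number of arrays limits the rest.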
